A study of Mus musculus with 8 samples.

Results

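The CXC chemokines measured here were 9 genes, Cxcl1, Cxcl2, Cxcl5, Cxcl9, Cxcl10, Cxcl12, Cxcl16, Pf4 and Ppbp, taken by symbol from the 4 deposited tables. They had 10 RefSeq transcripts, of which Cxcl12 had 2, among 19353 transcripts in all. RNA was sequenced from lineage-negative bone marrow cells of C57BL/6 mice, a preparation enriched for stem and progenitor cells. All 8 libraries came from Ring1a-/- Cdkn2a-/- cells, which lack the INK4A/ARF tumour suppressor locus and a paralogue of Ring1b; Ring1a and Ring1b are ubiquitin ligases of the Polycomb complex PRC1. Ring1b KO cells were set against Ring1b WT cells in 4 contexts: carrying MLL-AF9, HOXA9 or PML-RARa, or not transduced (NT). HOXA9 is a homeobox transcription factor, and MLL-AF9 and PML-RARa are leukaemia fusion proteins. The KO samples are titled OHT (4-hydroxytamoxifen), and the protocol in the labels gives 72 h of OHT or ethanol, so loss of Ring1b and exposure to OHT cannot be told apart. With 1 library for each genotype and context, the contexts were the only replication. Whether cells of several mice were pooled is not stated.

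CXC chemokines are small secreted proteins that guide leukocytes through receptors coupled to G proteins. Cxcl1, Cxcl2, Cxcl5 and the processed form of Ppbp attract neutrophils through Cxcr2, whereas Cxcl9 and Cxcl10 are induced by interferons and attract T and NK cells through Cxcr3. Cxcl12, made by marrow stromal cells, retains Cxcr4-bearing stem cells in the marrow. Cxcl16, a transmembrane ligand of Cxcr6, is found on macrophages and dendritic cells. Pf4 (platelet factor 4) and Ppbp (pro-platelet basic protein) are stored in the alpha granules of megakaryocytes and platelets.

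In the RefSeq gene order of GRCm38.p6, Cxcl5, Ppbp, Pf4 and Cxcl3 followed each other as neighbouring protein-coding genes on chromosome 5, and Cxcl1 and Cxcl2 were neighbours on the same chromosome. Cxcl9 and Cxcl10, also on chromosome 5, had Art3 between them. The RefSeq promoter table matched 7 of the 9 genes, all but Cxcl5 and Cxcl16. The 250 bases before the start are shown for 5 of them: Cxcl2 and Cxcl10, which rose in KO, Cxcl9, the interferon-induced partner of Cxcl10, and the neighbours Ppbp and Pf4. Sequences run 5′ to 3′ towards the gene and are from GRCm38.p6, whereas the build named for the deposited values is mm9. Capitals mark matches, on either strand, to the NF-kB consensus, the core of the interferon-stimulated response element, the TATA box (TATAAA), the GATA forms AGATAA and TGATAA, and the ETS core (AGGAAG).
Cxcl2 (chr5:90903649-90903898, plus strand): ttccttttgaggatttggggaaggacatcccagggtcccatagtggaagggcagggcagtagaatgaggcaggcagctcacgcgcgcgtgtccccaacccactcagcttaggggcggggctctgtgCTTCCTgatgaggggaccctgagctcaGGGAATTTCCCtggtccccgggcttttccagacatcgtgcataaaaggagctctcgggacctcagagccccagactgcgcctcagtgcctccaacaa
Cxcl10 (chr5:92348890-92349139, minus strand): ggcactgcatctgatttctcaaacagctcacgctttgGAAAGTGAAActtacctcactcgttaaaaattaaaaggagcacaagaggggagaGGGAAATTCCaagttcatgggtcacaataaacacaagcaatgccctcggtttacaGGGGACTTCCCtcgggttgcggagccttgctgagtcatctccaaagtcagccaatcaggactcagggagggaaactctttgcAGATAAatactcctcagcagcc
Cxcl9 (chr5:92328080-92328329, minus strand): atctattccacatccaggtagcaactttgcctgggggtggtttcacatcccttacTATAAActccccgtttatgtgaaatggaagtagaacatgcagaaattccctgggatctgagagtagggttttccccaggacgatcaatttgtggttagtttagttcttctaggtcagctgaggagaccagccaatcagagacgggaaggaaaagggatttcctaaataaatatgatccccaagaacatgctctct
Ppbp (chr5:90768268-90768517, plus strand): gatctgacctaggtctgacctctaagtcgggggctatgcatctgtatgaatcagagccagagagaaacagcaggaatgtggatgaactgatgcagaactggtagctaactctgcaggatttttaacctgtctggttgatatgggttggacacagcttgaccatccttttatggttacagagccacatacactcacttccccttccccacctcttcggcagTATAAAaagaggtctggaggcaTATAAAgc
Pf4 (chr5:90772185-90772434, plus strand): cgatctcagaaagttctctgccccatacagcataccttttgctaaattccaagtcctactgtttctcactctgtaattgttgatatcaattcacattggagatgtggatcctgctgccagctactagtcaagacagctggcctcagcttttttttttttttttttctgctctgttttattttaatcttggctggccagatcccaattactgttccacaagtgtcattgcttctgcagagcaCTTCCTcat
The Cxcl2 window held GGGAATTTCCC, which matches the NF-kB consensus on both strands, from 97 to 87 bases before the start, and the same run stood from 71 to 61 bases before the start of Cxcl1. Cxcl10 held an NF-kB match from 159 to 150 bases before its start, overlapping ones from 104 to 94, and the interferon element match GAAAGTGAAA from 213 to 204. The Cxcl9 window had neither motif. Of 32851 promoter windows of the same length, 7.25% held the NF-kB consensus and 2.98% the interferon element. Ppbp had TATA box matches beginning 30 and 8 bases before the start (12.4% of windows hold the motif), and Cxcl9 had one beginning 195 bases before. Pf4 and Cxcl2 had the ETS core on the other strand, read here as CTTCCT (29.5% of windows). Cxcl10 held AGATAA, found in 9.99% of windows, and none of the windows shown held TGATAA, found in 7.94%. These are matches of letters and were not tested for binding.

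Values are the authors' normalised read counts, scaled together over the 8 libraries, and folds are KO over WT. Recovered whole reads totalled 4226751 to 6641843 in KO and 5342836 to 6998223 in WT libraries. Rnf2, which encodes Ring1b, had values of 767 to 856 in KO and 666 to 990.4 in WT; which part of it is deleted is not stated, so a count over the whole transcript does not check the labels. Ring1, the gene of Ring1a, had 23.8 to 77.8 in KO and 109 to 191 in WT, so its transcript was read although the labels give it as knocked out. It was also called lower in KO in the limma fit described below (mean log2 ratio -1.81, limma adjusted p = 0.040). Macrophage markers also differed: the summed value of 12 transcripts was 10564 to 21536 in KO and 1668 to 4364 in WT. That of 5 progenitor marker transcripts was 105 to 187 in KO and 211 to 295 in WT. These 5 did not move alike. Myb and Flt3 were lower in KO in each context. Cd34 was higher in each, but by little in HOXA9 (61.5 against 59.8) and PML-RARa (89.3 against 83.2). Kit and Ly6a had low values and were higher in 3 of 4 contexts, which sets no direction. Ly6a had at most 5.81 in every library. Kit had 2.71 in KO against 2.49 in WT in HOXA9, 34.5 against 9.57 in PML-RARa and 1.36 against 6.35 in MLL-AF9. The part of these differences in the results below was not tested, and in bulk RNA fewer cells of a type cannot be told apart from less RNA per cell.

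Cxcl2, Cxcl10 and Cxcl16 rose in KO across the 4 contexts, at a Benjamini-Hochberg adjusted p under 0.05 in a limma fit that blocks on context. Cxcl10 and Cxcl5 reached the mean value of 20 needed for the test only through KO libraries. Cxcl5, Pf4 and Ppbp had higher values in KO in every context without passing that test. Cxcl1, Cxcl9 and both Cxcl12 transcripts had a mean value under 20 and were not tested. Thus 3 of 6 tested transcripts were called, all higher, where 13.9% of 10599 tested transcripts were called, 6.4% as higher and 7.48% as lower in KO. All 6 tested transcripts were higher in KO in 4 of 4 contexts, as were 22.9% of the 10599. edgeR on the recovered reads called 5 of the 6 as higher (12.0% of all tested), leaving out Ppbp, and DESeq2 called all 6 (16.7% of all). Ratios are on the log2(value + 1) scale, and the error given with a mean ratio is the SE over the 4 contexts.

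The calls of Cxcl2, Cxcl10 and Cxcl16 held with a pseudocount of 10 (6.96% of all called higher) or 0.5 (6.24%), a minimum mean of 50 (7.91%), ratios centred in each context (6.66%) and no replicate block (3.67%). They were lost with no filter on low values, where 1.07% of all transcripts were called higher. Without the NT pair, Cxcl10 alone of the members was called (0.226% of all). Without any other pair no transcript was called higher by limma (0.0%), while 2982 to 3319 transcripts had an unadjusted p under 0.05.

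**Figure D1:**
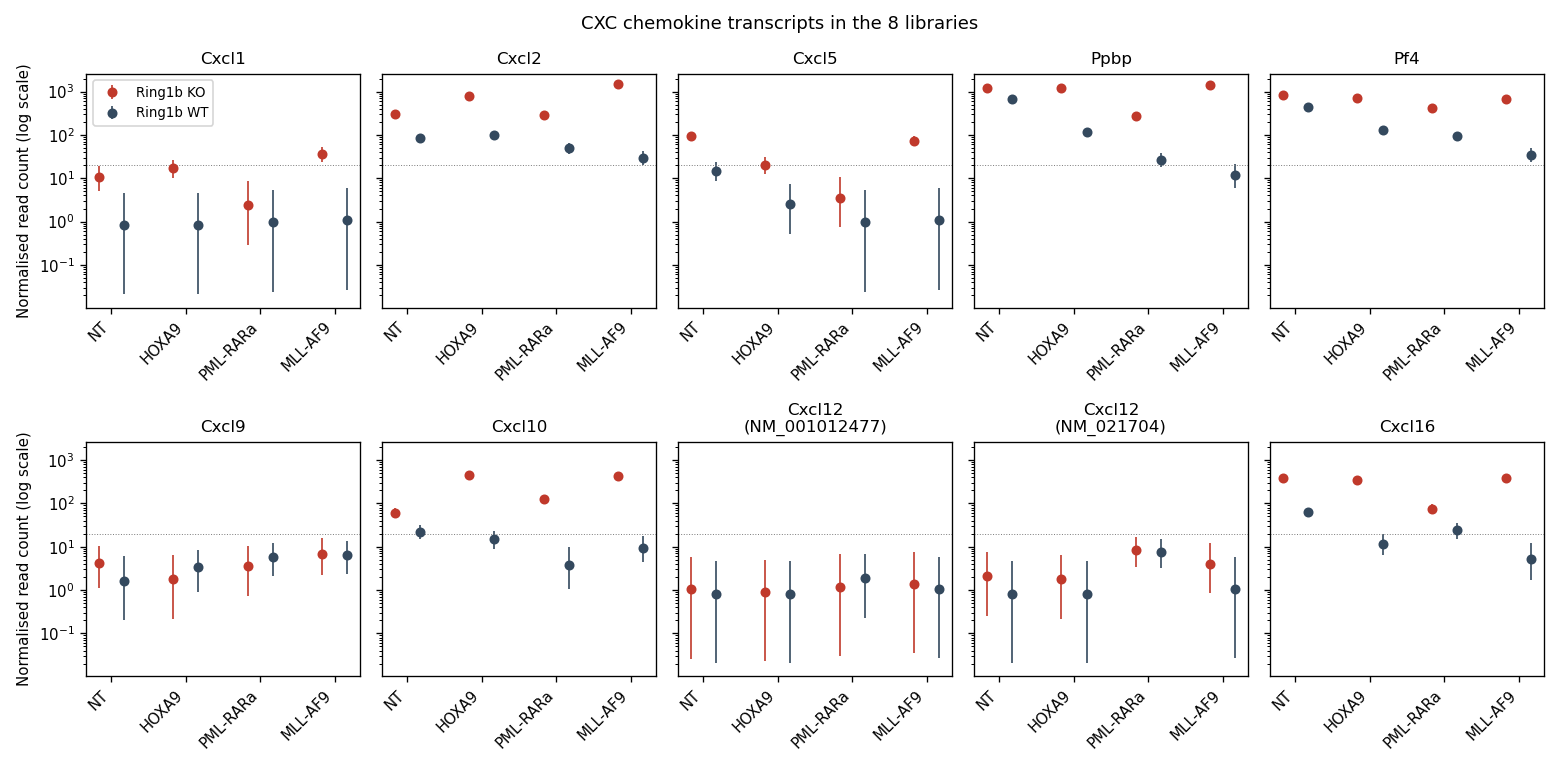
Normalised read count (log axis) of each CXC chemokine transcript in the 8 libraries, with Ring1b KO left of Ring1b WT in each context. Bars are 95% Poisson intervals, which cover counting error only, and the dotted line marks a value of 20; Cxcl1, Cxcl2, Cxcl10 and Cxcl16 had every KO library above every WT library.

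Among the neutrophil attractants, Cxcl2 (NM_009140) had values of 1475 in MLL-AF9, 804 in HOXA9, 289 in PML-RARa and 309 in NT KO cells. The WT cells had 29.6 in MLL-AF9, 100.5 in HOXA9, 49.8 in PML-RARa and 86.0 in NT. Every KO library was above every WT library, and MLL-AF9 held both the highest KO and the lowest WT value. The fold was 49.7 in MLL-AF9 (95% counting interval 34.2 to 75.2), 8.01 in HOXA9, 5.81 in PML-RARa and 3.59 in NT. On average Cxcl2 rose by 3.23 ± 0.82 on the log2 scale (limma adjusted p = 0.045). Without the MLL-AF9 pair the mean was 2.44 (limma adjusted p = 0.10), and without any other pair it was 3.31 to 3.70 (limma adjusted p = 0.088 to 0.11).

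Cxcl5 (NM_009141), another Cxcr2 ligand, had 73.7 in MLL-AF9, 19.9 in HOXA9, 3.57 in PML-RARa and 95.6 in NT KO cells. The WT cells had 1.06 in MLL-AF9, 2.49 in HOXA9, 0.957 in PML-RARa and 14.9 in NT. The PML-RARa KO library lay below the NT WT library, so the genotypes overlapped, and the mean passed the limit of 20 only through KO libraries. The MLL-AF9 and PML-RARa WT values were 1 read, the lowest entry of a library, which may stand for 0 or 1. The mean log2 ratio was 2.90 ± 0.83 (limma adjusted p = 0.052), and edgeR gave an adjusted p of 0.025.

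Cxcl1 (NM_008176), the neighbour of Cxcl2, had few reads. KO cells held 27 in MLL-AF9, 19 in HOXA9, 2 in PML-RARa and 10 in NT, and each WT library stood at the lowest entry of 1 read. The ratio was 34.8 in MLL-AF9 (95% counting interval 5.73 to 1424), 20.7 in HOXA9 (3.29 to 860.5) and 12.6 in NT (1.79 to 545), and each of these intervals lay above 1. The PML-RARa ratio of 2.49 had an interval of 0.13 to 147, which included 1. The mean log2 ratio was 2.74 ± 0.72, with a limma adjusted p of 0.066 when transcripts with low values were kept.

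Cxcl3, a Cxcr2 ligand next to Pf4 that is not among the 9 genes, also rose. It had 857 in MLL-AF9, 217 in HOXA9, 91.6 in PML-RARa and 323 in NT KO cells, against 11.6, 27.4, 16.3 and 61.2 in the WT cells of those contexts. On average it rose by 3.46 ± 0.88 on the log2 scale (limma adjusted p = 0.045). Of the 36-base windows of the Cxcl2 transcript, 6.98% occur in that of Cxcl3, so part of their reads could belong to either gene. No other pair of different genes among the CXC ligands compared shared a window.

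Of the platelet chemokines, Ppbp (NM_023785) had values of 1398 in MLL-AF9, 1184 in HOXA9, 277 in PML-RARa and 1223 in NT KO cells. The WT cells had 11.6 in MLL-AF9, 118 in HOXA9, 26.8 in PML-RARa and 678 in NT. The KO libraries spanned a 5.04-fold range and the WT libraries a 58.2-fold range, and the NT WT library lay above the PML-RARa KO library. The fold was 120.1 in MLL-AF9 (95% counting interval 66.8 to 241), 10.04 in HOXA9, 10.4 in PML-RARa and 1.80 in NT. The mean log2 ratio of 3.57 ± 1.22 did not pass by limma (adjusted p = 0.069) or edgeR (adjusted p = 0.057), and passed by DESeq2 (adjusted p = 0.0022).

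Pf4 (NM_019932) had 662 in MLL-AF9, 708 in HOXA9, 423 in PML-RARa and 833 in NT KO cells. The WT cells had 34.9 in MLL-AF9, 128 in HOXA9, 94.7 in PML-RARa and 443 in NT. The KO values spanned a 1.97-fold range and the WT values a 12.7-fold range, and again the NT WT library lay above the PML-RARa KO library. The fold was 18.9 in MLL-AF9, 5.53 in HOXA9, 4.46 in PML-RARa and 1.88 in NT. The mean log2 ratio of 2.43 ± 0.68 missed the threshold by limma (adjusted p = 0.051) and passed it by edgeR (adjusted p = 0.035).

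These counts were high for short transcripts: at most 1.36 reads per base for Pf4, 1.21 for Ppbp and 0.975 for Cxcl2, each in a KO library. Of 18873 transcripts with a known length, 402 exceeded 1 read per base in any library and 1 exceeded 2. Whether the KO values of these 3 genes were held down near that level was not tested.

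The levels of Pf4 and Ppbp were set beside the 9 megakaryocyte and platelet marker transcripts with a mean of at least 20. In the KO cells the NT value over the MLL-AF9 value was 1.26 for Pf4 and 0.875 for Ppbp. For the 9 markers it ran from 2.15 for Vwf, the von Willebrand factor gene, to 25.5 for Gp1ba, a subunit of its receptor, with a median of 7.87. In the WT cells the same quantity was 12.7 for Pf4 and 58.2 for Ppbp, and 2.25 to 51.6 for the markers, with a median of 10.2. So the platelet chemokines stood at like levels in NT and MLL-AF9 KO cells, where each of the 9 markers was lower in MLL-AF9. With 1 library per group, this contrast has no replicate test. In NT and MLL-AF9 KO cells Pf4 had 1.36 and 0.825 reads per base, and Ppbp had 1.09 and 0.946. Whether their values were held down near that level was not tested.

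HOXA9 cells showed a like arrangement, with the same limits. The NT KO value over the HOXA9 KO value was 1.18 for Pf4 and 1.03 for Ppbp, and 1.49 to 18.7 for the markers, with a median of 6.26. Between genotypes, Ppbp was 10.04-fold and Pf4 5.53-fold higher in HOXA9 KO cells than in HOXA9 WT cells, while the markers' folds ran from 0.516 for Gp1ba to 8.50 for Gp9, with a median of 1.63 and 6 of 9 above 1. In PML-RARa, by contrast, Pf4 and Ppbp had their lowest KO values, as did 1 of the 9 markers, Treml1; the other 8 were lowest in HOXA9 or MLL-AF9 KO cells. All markers but Itga2b, a platelet integrin subunit, were lower in PML-RARa KO than in NT KO cells. Over the KO libraries the highest value over the lowest was 1.97 for Pf4 and 5.04 for Ppbp. For the markers it ran from 2.16 for Nbeal2 to 206 for Treml1, with a median of 7.87. Itgb3 (4.61), Vwf (3.74) and Nbeal2 thus had a narrower KO range than Ppbp.

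**Figure D2:**
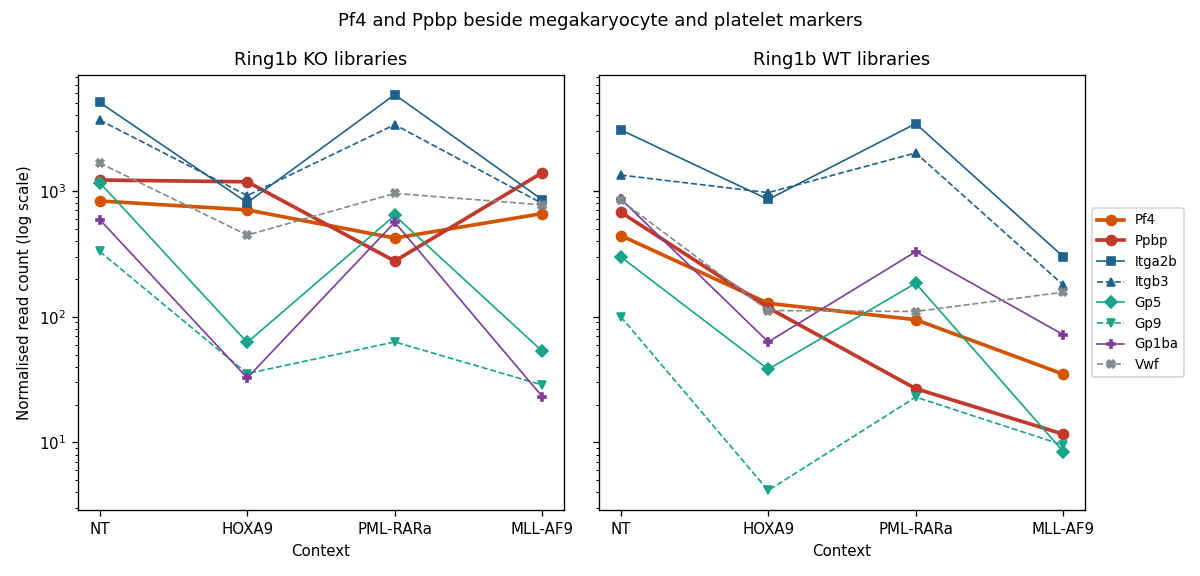
Normalised read count (log axis) of Pf4, Ppbp and 6 megakaryocyte and platelet genes by context, in Ring1b KO libraries (left) and Ring1b WT libraries (right); each point is 1 library and lines only join the points of a gene. The 6 genes were picked from the 9 after their values were seen. In KO, Pf4 and Ppbp stay high in HOXA9 and MLL-AF9 cells, where Gp5, Gp1ba and Gp9 are low. Itga2b, Itgb3 and Vwf are lower there than in NT KO cells but still have values from 446 to 919. Of the markers not shown, Nbeal2 had 2513 in HOXA9 and 1730 in MLL-AF9 KO cells, against 3737 in NT KO cells. Treml1 and Selp had 17.7 to 172 there, against 245 and 419 in NT KO cells.

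Over the whole marker list, 14 of 15 genes were found, and 3 of the 9 tested transcripts rose and none fell, with a median log2 ratio of 1.07. Of all tested transcripts, 6.4% were called higher and 7.48% lower. The 3 were Vwf (2.09 ± 0.44), Gp9 (1.86 ± 0.32) and Gp5 (1.74 ± 0.38), with limma adjusted p from 0.036 to 0.040. The summed value of the list was 4349 to 17024 in KO and 2209 to 10102 in WT cells, and it was higher in KO in each context. The part of this difference in the values of Pf4 and Ppbp was not tested.

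Of the interferon-induced ligands, Cxcl10 (NM_021274) rose and Cxcl9 (NM_008599) was scarcely detected. Cxcl10 had 438 in MLL-AF9, 457 in HOXA9, 129.7 in PML-RARa and 59.2 in NT KO cells. The WT cells had 9.53 in MLL-AF9, 14.9 in HOXA9, 3.83 in PML-RARa and 22.3 in NT. No KO value overlapped a WT value, and NT was the lowest context in KO and the highest in WT. The fold was 46.0 in MLL-AF9 (95% counting interval 23.9 to 101), 30.6 in HOXA9, 33.9 in PML-RARa and 2.65 in NT (1.65 to 4.36). On average Cxcl10 rose by 4.09 ± 0.92 on the log2 scale (limma adjusted p = 0.039). Its mean value was 271 in KO and 12.7 in WT, so it was tested only because of its KO values, and with no filter on low values the limma adjusted p was 0.055. Without the NT pair the mean was 4.99 (limma adjusted p = 0.048), and without any other pair it was 3.66 to 3.86 (limma adjusted p = 0.10 to 0.12).

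Cxcl9 held 5 reads in MLL-AF9, 2 in HOXA9, 3 in PML-RARa and 4 in NT KO cells, and 6, 4, 6 and 2 reads in the WT cells of those contexts. The counting interval of each of its 4 ratios included 1, so a change was not detectable at this depth. In MLL-AF9 the interval of the Cxcl9 ratio, 0.259 to 4.22, lay wholly below that of Cxcl10. The same held in HOXA9 (0.0493 to 3.80 against 19.2 to 52.0) and PML-RARa (0.101 to 2.91 against 12.9 to 127). In NT the intervals overlapped (0.360 to 27.8 against 1.65 to 4.36).

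The log2 ratio of Cxcl10 was 1.37 in NT and averaged 4.99 in the 3 transduced contexts. The difference of -3.63 had an adjusted p of 0.70 by limma (unadjusted 7.7e-04), with the lone NT pair assumed to vary like the others. For Ppbp the difference was -3.63 (limma adjusted p = 0.97), for Pf4 -2.03 (limma adjusted p = 0.97), for Cxcl2 -1.87, for Cxcl16 -1.51 and for Cxcl5 -0.39 (limma adjusted p = 0.999 for each of these 3). The Cxcl5 difference was 0.59 with a pseudocount of 10. Limma called 0 of the 10599 transcripts (0.0%) in this comparison, and 573 (5.41%) had an unadjusted p under 0.05.

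**Figure D3:**
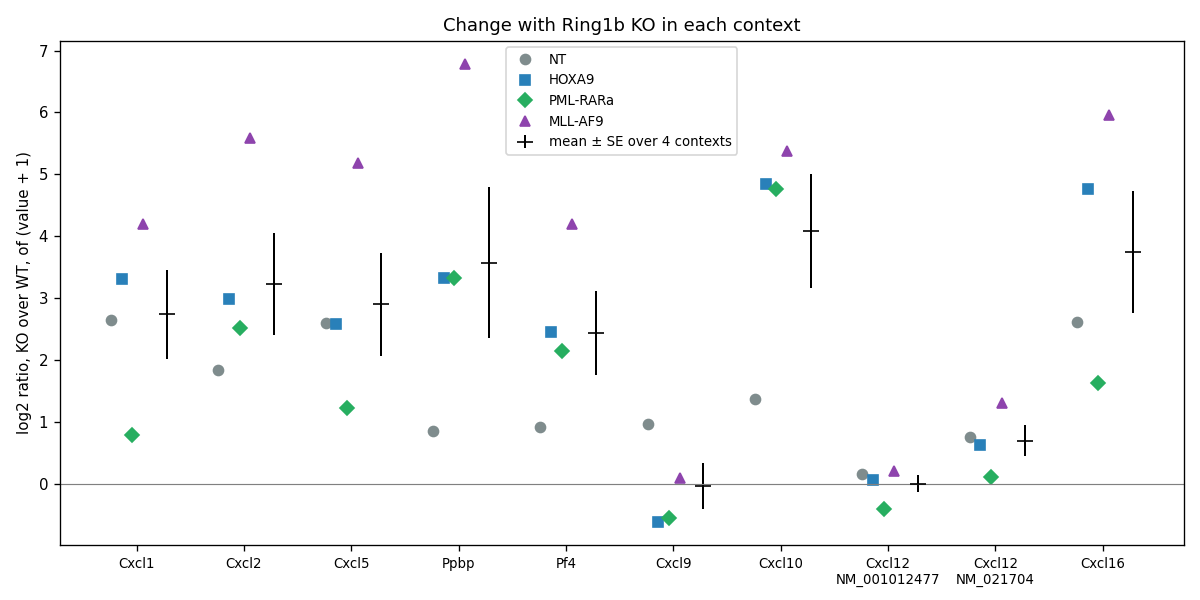
Log2 ratio, KO over WT, of the value + 1 for each CXC chemokine transcript in each context, with the mean ± SE over 4 contexts in black. MLL-AF9 had the highest ratio for each of Cxcl1, Cxcl2, Cxcl5, Ppbp, Pf4, Cxcl10 and Cxcl16, and NT the lowest for Cxcl2, Ppbp, Pf4 and Cxcl10.

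Cxcl16 (NM_023158) had values of 391.5 in MLL-AF9, 343 in HOXA9, 76.2 in PML-RARa and 394 in NT KO cells. The WT cells had 5.29 in MLL-AF9, 11.6 in HOXA9, 23.9 in PML-RARa and 63.7 in NT. All KO values lay above all WT values, with PML-RARa the lowest KO library and NT the highest WT library. The fold was 74.0 in MLL-AF9 (95% counting interval 31.3 to 229), 29.5 in HOXA9, 3.18 in PML-RARa (1.98 to 5.28) and 6.18 in NT. On average Cxcl16 rose by 3.74 ± 0.99 on the log2 scale (limma adjusted p = 0.046). Without the MLL-AF9 pair the mean was 3.003 (limma adjusted p = 0.12), and without any other pair it was 3.40 to 4.45 (limma adjusted p = 0.097 to 0.13).

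An exon of Zmynd15 overlaps Cxcl16 on the other strand in the GENCODE annotation of GRCm38, as an exon of Art3 does Cxcl10. The library kit named in the labels does not mark strand, so reads there cannot be assigned. Zmynd15 had values of 4.76 to 39.5 in KO and 1.06 to 11.6 in WT cells, and Art3 had 5.20 to 10.9 in KO and 0.827 to 6.64 in WT cells.

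Cxcl12 was near the detection limit. NM_001012477 had 1 or 2 reads in every library, and NM_021704 had 2 to 7 reads in KO and 1 to 8 in WT, highest in PML-RARa in both genotypes. The counting interval of every ratio of both transcripts included 1. Markers of stromal cells, the main source of Cxcl12 in marrow, were also low: the summed value of 10 transcripts was 51.2 to 119 in KO and 51.7 to 102 in WT, and 4 of the 10, among them both Pdgfra transcripts, had at most 3 reads in every library. The others did not move alike. Kitl had 51.8 in MLL-AF9 and 35.3 in NT KO cells, against 2.12 and 4.14 in WT, and was lower in HOXA9 KO cells. Col1a1 had 30.0 in KO against 4.24 in WT in MLL-AF9, and 14.5 against 29.0 in NT. The 1 tested transcript, of Lepr, was lower in KO in each context.

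Within single contexts, transcripts with 20 or more in the higher library were compared. In MLL-AF9, 7 of the 10 transcripts reached that value and all 7 were at least 2-fold higher in KO, as were 14.6% of all transcripts that reached it. There were 5 of 5 in HOXA9 (9.13% of all), 5 of 5 in PML-RARa (9.06%) and 4 of 6 in NT (13.8%). None was 2-fold lower, as 16.0%, 6.39%, 13.7% and 8.76% of all were in MLL-AF9, HOXA9, PML-RARa and NT. Where the WT value was under 10, reaching 20 in KO itself fixed a fold of at least 2. This held for Cxcl1, Cxcl5, Cxcl10 and Cxcl16 in MLL-AF9 and for Cxcl10 in PML-RARa. Ppbp in MLL-AF9, Cxcl10 and Cxcl16 in HOXA9 and Cxcl5 in NT also reached 20 only through KO. Cxcl2, Cxcl10 and Cxcl16 passed in all 4 contexts, Pf4 and Ppbp in the 3 transduced contexts, Cxcl5 in MLL-AF9 and NT, and Cxcl1 in MLL-AF9. In 4 of the 10 transcripts, 3 of them tested, all KO libraries lay above all WT libraries, as in 8.28% of all tested transcripts.

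Per kilobase of transcript, Pf4, Ppbp and Cxcl2 had the 3 highest levels of the 10 transcripts in each of the 8 libraries. Pf4 led in 7 of them, with 1417 per kb in NT KO cells and 753 per kb in NT WT cells. The exception was the MLL-AF9 KO library, where Cxcl2 stood at 1330 per kb, Ppbp at 1291 per kb and Pf4 at 1125 per kb, against 26.7, 10.8 and 59.4 per kb in MLL-AF9 WT cells. The order among these 3 was not tested. In that KO library they had 0.825 to 0.975 reads per base, where values may be held down.

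Over the 8 libraries, the transcripts most like Cxcl10 in log2 value were the interferon-induced genes Irgm1 (Pearson r = 0.989), Rsad2 (0.985) and Ifit1 (0.985). Pf4 was most like C1qb (0.982) and C1qc (0.977), complement subunits made by macrophages, and Ppbp (0.977). Ppbp was most like Slfn1 (0.987), Pf4 and Cflar (0.960). The transcripts most like Cxcl2 were Rnf149 (0.986), the CSF1 receptor gene Csf1r (0.985) and Clec4d (0.984). Those most like Cxcl16 were Pqlc2 (0.984), Stard3nl (0.982) and Rap2b (0.981), and those most like Cxcl5 were Mllt11 (0.981), Ensa (0.9775) and Pdgfb (0.976). The libraries form 4 pairs and these are the highest of 10599 correlations, so the values are a description.

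Of 8 CXC receptor genes 7 were found and 3 could be tested, with a median log2 ratio of 0.42, beside -0.03 over all tested transcripts. None of the 3 was called by limma. Over all tested transcripts 13.9% were called, so 0 of 3 cannot be told from that share. Cxcr2, the receptor of Cxcl1, Cxcl2 and Cxcl5, had 623 in MLL-AF9, 559 in HOXA9, 1746 in PML-RARa and 1643 in NT KO cells, against 256, 722, 1875 and 908 in the WT cells of those contexts. The genotypes overlapped (0.42 ± 0.39, limma adjusted p = 0.39). Cxcr4, the Cxcl12 receptor, had 979.5 in MLL-AF9, 731 in HOXA9, 275 in PML-RARa and 596 in NT KO cells, against 1015, 906, 1054 and 1013 in the WT cells of those contexts. Its value was lower in KO in 4 of 4 contexts, with the PML-RARa KO library lowest (-0.76 ± 0.42, limma adjusted p = 0.18).

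Cxcr3, the receptor of Cxcl9 and Cxcl10, had a mean value under 20 and was not tested, with 5.95 to 36.2 in KO and 1.06 to 2.87 in WT and no overlap. The decoy receptor Ackr1, listed as Darc, had 246 in PML-RARa and 289.9 in NT KO cells, against 78.5 and 169.6 in the WT cells of those contexts, and at most 2.73 in the other 4 libraries (0.83 ± 0.32, limma adjusted p = 0.099). Cxcr1, Cxcr5 and Cxcr6 had at most 17.2 in every library.

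Among other CXC ligands, 4 of 6 genes were found and Cxcl3 was the one tested. Cxcl14 had 11.4 to 53.2 in KO and 1.06 to 2.87 in WT, without overlap, and Cxcl13 and Cxcl15 had at most 6.35 in every library. Proteases that cleave chemokines, gave 0 calls by limma among 7 tested transcripts, with a median log2 ratio of 0.39 (edgeR called 1, Adam10, which sheds Cxcl16, as higher). Signalling genes of chemokine receptors gave 0 calls by limma among 7, with a median of 0.25 (edgeR called 3 as higher: Gnai2, Rac1 and Dock2). Over all tested transcripts limma called 13.9% in either direction and edgeR called 12.0% as higher. A limma count of 0 of 7 cannot be told from that share.

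Known inducers of chemokine genes and their other targets moved in part. Over all tested transcripts limma called 6.4% higher and 7.48% lower in KO, so none falling in lists of this size is near that share. Of the interferon regulators and targets, 4 of 8 tested transcripts rose and none fell, with a median log2 ratio of 2.002: Ifit1 (5.38 ± 0.74), Oas2 (3.29 ± 0.70), the GTPase gene Gbp2 (3.05 ± 0.42) and Isg15 (2.95 ± 0.58). Ifit1, with a mean value of 488 in KO and 8.76 in WT, was tested only because of its KO values. Ifnb1, the interferon beta gene, had 16.4 in the MLL-AF9 KO library and at most 4.52 in the others. Of the NF-kB pathway and targets, 3 of 13 tested transcripts rose and none fell, with a median of 0.78: the cytokine gene Il1a (4.02 ± 0.75), the subunit gene Relb (1.99 ± 0.51) and the adaptor gene Traf1 (1.89 ± 0.42). The limma adjusted p of these 7 genes lay between 0.035 and 0.046.

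Among markers of cells that can make or bind CXC chemokines, 11 of 12 macrophage transcripts rose, with a median of 4.15, from Cd68 (1.21 ± 0.29) to the scavenger receptor gene Marco (5.63 ± 0.98). Over all tested transcripts limma called 6.4% higher and 7.48% lower, and edgeR called 12.0% higher. Neutrophil markers gave 0 calls among 8 by limma and by edgeR, too few to tell from the shares over all, with a median of -0.61. Their ratios went both ways, from -1.56 for Camp to 1.18 for Mmp8. Marco and Siglec1 reached the limit of 20 only through KO libraries. Of 3 tested endothelial transcripts Kdr and Tek rose, and both were tested only because of their KO values. The single tested T and NK cell transcript, Nkg7, fell by 2.13 ± 0.25. Of 3 tested progenitor transcripts Myb fell by 1.89 ± 0.23. Flt3 and Cd34 were not called. Cd34 was higher in KO in 4 of 4 contexts, with log2 ratios from 0.041 in HOXA9 to 1.86 in MLL-AF9. Stromal, B cell and erythroid markers gave no calls among 1, 1 and 3 tested transcripts by limma or edgeR. The part of the macrophage difference in the rise of Cxcl2, Cxcl10 and Cxcl16 was not tested.

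**Figure D4:**
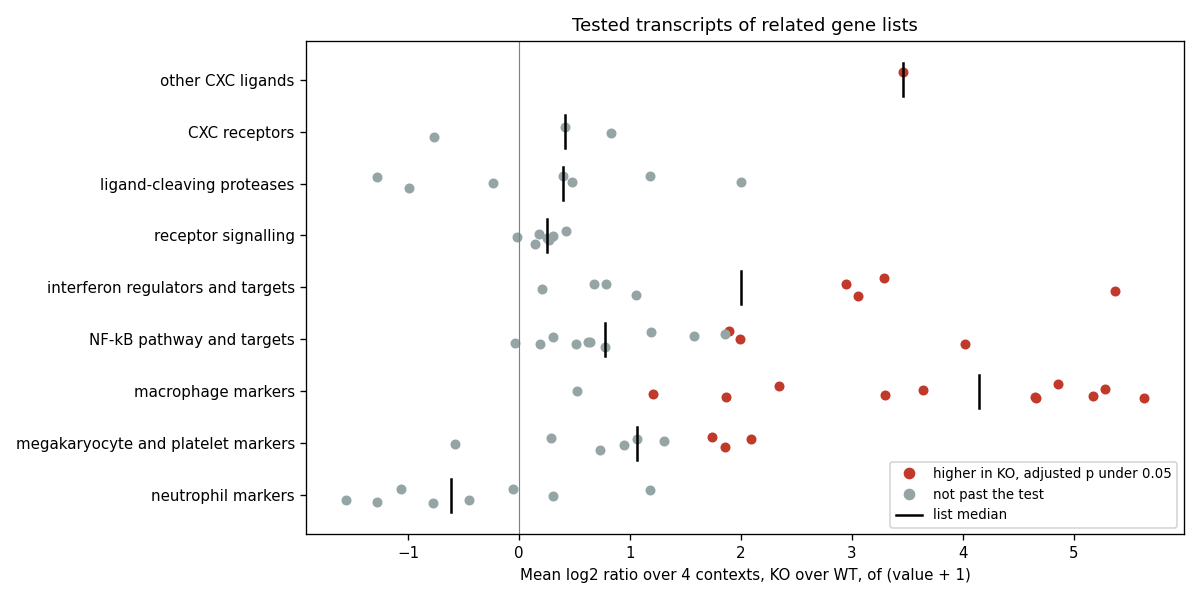
Mean log2 ratio over 4 contexts, KO over WT, of the value + 1, for each tested transcript of lists related to CXC chemokines, with the list median as a bar. Red transcripts were called higher in KO by limma with contexts as blocks. They were 11 of 12 macrophage markers and 0 of 3 receptors, beside 6.4% of all tested transcripts, from which 0 of 3 cannot be told apart.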

How the data were processed

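The labels give mRNA libraries of 8 mouse samples, 1 per genotype and context. The submitters' processing notes name TopHat, DESeq and mm9 without versions or roles, and the read counter is not given in the sources used here. The authors deposited 4 tables of normalised signal per RefSeq transcript (base mean, per the file headers). Their deposited ratio (fold change), its log2 and an unadjusted p-value, each of 1 library against 1, were not used; the deposited fold equals the ratio of the values for 100% of transcripts.

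Each library's values are whole multiples of its lowest value (100% within 0.02). This gave whole reads, exact 95% Poisson intervals for values and exact 95% binomial (Clopper-Pearson) intervals for ratios, all covering counting error only. The multiples equal size factors over the 8 libraries together to within 0.00026%, so levels can be set side by side across tables. From 15.1% to 20.0% of transcripts stand at the lowest entry, which may mean 0 or 1 read. Columns were matched to samples by title; the NT table heads its columns as an empty condition. Dates stood in place of 35 symbols, and 34 were restored by RefSeq identifier.

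The test was limma 3.58.1 (R 4.3.3), two-sided, on log2(value + 1) with context as a block, over 10599 transcripts with a mean of at least 20; the contexts pair the libraries by design. It called 1471 transcripts, and on recovered reads edgeR 4.0.16 (quasi-likelihood) called 2235 and DESeq2 1.42.0 called 3130. The fits were also run on simulated counts with the same change in every context. The members changed unequally between contexts, so that run does not bear on their calls. Alternatives were the pseudocount, the filter, centring, no block and leaving out each pair. Transcript lengths are from GENCODE M21 and promoters from RefSeq. Named genes were all members, receptors and other CXC ligands, members of the interferon, NF-kB, protease and signalling lists past the test, and the 3 most correlated transcripts of each tested member. Marker genes, Ifnb1 and genes called by edgeR alone were named after their values were seen. Members and lists were chosen with earlier results of these data known. The labels do not say that libraries came from separate animals, so no p-value here can be taken to measure the spread between animals. In the main test it rests on how KO over WT varied between the 4 contexts.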

Additional observations from a re-analysis of the deposited data

Results flagged for a closer look

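The log2 ratio of Cxcl10 in NT, 1.37, stood apart from those in MLL-AF9 (5.38), HOXA9 (4.84) and PML-RARa (4.76), with a gap to the nearest value that is large for the range of 4 values. About 1 in 20 groups is expected to show such a gap by chance, and 10 transcripts were examined. In NT, Cxcl10 had 57 reads in the KO library and 27 in the WT library.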

How the results depend on the processing

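The 6 tested members kept their direction across the 4 contexts under every alternative run for them; Cxcl5, with a mean under 50, has no value at the minimum mean of 50. The mean log2 ratios without a pair were 2.44 to 3.70 for Cxcl2, 3.66 to 4.99 for Cxcl10 and 3.003 to 4.45 for Cxcl16. With no filter on low values their adjusted p by limma was 0.063, 0.055 and 0.065; more transcripts then enter the adjustment. Pf4 passed with a pseudocount of 10 (limma adjusted p = 0.042), a minimum mean of 50 (0.045), edgeR and DESeq2, Cxcl5 with edgeR and DESeq2, and Ppbp with DESeq2 alone; the cause was not tested. The difference between NT and the transduced contexts reversed for Cxcl5 with a pseudocount of 10, at 0.59, and the cause was not tested.

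Over all transcripts, 678 were called higher and 793 lower in KO. There were 207 and 147 with no filter, 389 and 610 without the replicate block, 1276 and 959 with edgeR, and 1768 and 1362 with DESeq2. The share of calls that were higher was 46.1% by limma, 57.1% by edgeR and 56.5% by DESeq2. Leaving out a pair, with fewer samples, gave 0 to 24 higher and 0 to 2 lower. Depth limited Cxcl1, Cxcl9 and Cxcl12, with at most 27 reads in a library.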
